A study of Mus musculus with 11 samples.

Results

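Follicular helper T cells (Tfh) are CD4 T cells that enter B cell follicles and help B cells in germinal centres. Accessible chromatin at 8 genes of their program was examined in mouse CD4 T cells: the regulators Bcl6, Ascl2 and Pou2af1, the receptors Cxcr5 and S1pr2, the SLAM receptor Slamf6 with the adaptor gene Sh2d1a, and Angptl2. Their peaks were those whose centre lay nearest to a RefSeq transcription start site of one of the 8 genes. This gave 41 of the 38509 consensus peaks in the deposited table, which together lay nearest to 14242 genes. Bcl6 and Cxcr5 had 9 peaks each, Angptl2 had 7, Sh2d1a had 6, Pou2af1 had 5, S1pr2 and Slamf6 had 2 each and Ascl2 had 1. All 41 passed the filter on low values. Distances are from the peak's centre to the nearest start site of the gene, negative upstream, and coordinates are GRCm38/mm10.

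ATAC-seq cuts open DNA with a transposase, and the number of reads in a peak measures how accessible that site is. The 11 libraries came from 4 sorted groups of CD4 T cells. Anergic cells (n = 3), which have lost the response to their antigen, were sorted as CD44 high, FOXP3 negative, high for both CD73 and FR4, and NRP1 positive. Regulatory T cells (Treg, n = 3) were sorted by FOXP3 and CD25. Effector cells (Teff, n = 3) were also CD44 high and FOXP3 negative but low for CD73 and FR4, and naive cells (n = 2) were CD44 low. All 4 groups, the naive cells included, were wild-type C57BL/6, polyclonal and labelled Foxp3-GFP, a reporter of FOXP3 expression. They were isolated fresh and untreated from spleen mixed with lymph node. Age, sex and pooling of the mice are not given in the sources used here. Nor is it given whether replicates came from separate animals, so p-values measure only the spread between these samples. No gate named for the sorts uses CXCR5, PD-1 or BCL6, so the share of Tfh cells in each group was not measured. In bulk samples, more cells with an open site and more opening per cell cannot be told apart.

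Differentiation into Tfh cells is directed by BCL6, a transcriptional repressor, which is opposed by BLIMP-1, the product of Prdm1. ASCL2 is a basic helix-loop-helix factor that binds E-boxes and induces Cxcr5, the receptor for the follicular chemokine CXCL13. S1PR2 holds cells inside the follicle, while S1PR1 draws them out. SLAMF6 (Ly108) and its adaptor SAP, the product of Sh2d1a, maintain the contact between T and B cells. POU2AF1 (OCA-B) is a coactivator of octamer-binding factors, best known from B cells. Angptl2 encodes a secreted angiopoietin-like protein.

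Windows of 200 bases around the centre of 6 peaks at Angptl2, Cxcr5 and Bcl6 are shown. Each of these peaks carries the largest difference at its gene in at least 1 comparison of 2 groups. Windows of other such peaks, and of some that go against the rest of their gene, are not printed. All are from the plus strand of GRCm38, read 5′ to 3′ from RefSeq's assembly. Angptl2 is encoded on the plus strand, and Cxcr5 and Bcl6 on the minus strand. Capitals mark matches on either strand to AP-1 (TGANTCA), the E-box (CANNTG), the STAT or BCL6 motif (TTCNNNGAA), NFAT (TGGAAA) and TCF1 or LEF1 (CTTTGA). Adjoining matches run together in capitals. A match is a description and does not show that a factor bound.
Angptl2 at -39.3 kb, chr2:33176611-33176810: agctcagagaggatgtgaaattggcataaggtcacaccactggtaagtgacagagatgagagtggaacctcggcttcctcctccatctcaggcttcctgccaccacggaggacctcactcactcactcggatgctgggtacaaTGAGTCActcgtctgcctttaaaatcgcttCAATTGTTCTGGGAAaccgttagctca
Angptl2 at -7.63 kb, chr2:33208228-33208427: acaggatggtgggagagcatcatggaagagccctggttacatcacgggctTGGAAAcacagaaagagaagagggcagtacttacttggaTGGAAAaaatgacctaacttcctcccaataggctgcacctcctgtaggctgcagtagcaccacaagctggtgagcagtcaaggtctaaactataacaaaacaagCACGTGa
Cxcr5 at -2.09 kb, chr9:44528434-44528633: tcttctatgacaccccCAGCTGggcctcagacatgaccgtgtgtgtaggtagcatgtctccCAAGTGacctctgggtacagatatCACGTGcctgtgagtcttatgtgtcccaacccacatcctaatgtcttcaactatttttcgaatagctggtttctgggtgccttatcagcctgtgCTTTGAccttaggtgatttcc
Cxcr5 at -36.7 kb, chr9:44563074-44563273: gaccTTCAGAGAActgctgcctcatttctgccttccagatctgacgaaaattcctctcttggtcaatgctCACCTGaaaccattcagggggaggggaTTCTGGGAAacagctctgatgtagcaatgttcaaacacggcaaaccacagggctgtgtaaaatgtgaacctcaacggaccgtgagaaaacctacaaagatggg
Bcl6 at -0.62 kb, chr16:23989374-23989573: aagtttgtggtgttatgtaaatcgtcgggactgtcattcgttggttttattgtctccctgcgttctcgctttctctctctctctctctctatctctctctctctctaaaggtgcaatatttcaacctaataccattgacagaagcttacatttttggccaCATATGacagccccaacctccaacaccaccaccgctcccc
Bcl6 at -2.52 kb, chr16:23991273-23991472: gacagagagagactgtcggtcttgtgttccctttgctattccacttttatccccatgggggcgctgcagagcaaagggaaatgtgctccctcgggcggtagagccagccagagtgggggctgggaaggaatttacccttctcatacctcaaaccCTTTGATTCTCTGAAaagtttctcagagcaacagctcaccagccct

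The Angptl2 window at -39.3 kb held an AP-1 match and, side by side, an E-box and a STAT or BCL6 match. The window at -7.63 kb held 2 NFAT matches and an E-box. Among the Cxcr5 windows, that at -2.09 kb held 3 E-boxes and a TCF1 or LEF1 match, and that at -36.7 kb held 2 STAT or BCL6 matches and an E-box. The Bcl6 window at -0.62 kb held 1 E-box, and that at -2.52 kb held adjoining TCF1 or LEF1 and STAT or BCL6 matches. Over the 41 windows, the AP-1 motif was present in 3, against 9.03% of windows at all 38441 peaks on chromosomes. The E-box was present in 28 of 41 (61.6% of all windows), its form CAGCTG in 7 (12.8%) and the STAT or BCL6 motif in 4 (5.05%). NFAT was present in 7 (14.8%), of which 4 were among the 9 Cxcr5 windows, TCF1 or LEF1 in 6 (13.6%), RUNX (TGTGGT) in 10 (20.4%) and ETS (CAGGAA) in 10 (28.6%). No member window held the octamer ATGCAAAT (1.06% of all windows), the FOXO motif GTAAACA (2.77%), the T-box motif AGGTGTGA (1.17%), the KLF motif CCACACCC (2.93%) or either BATF-IRF composite (0.237% and 0.208%). Both composites contain the AP-1 motif, and CAGCTG is a form of the E-box.

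Reads in peaks, recovered from the deposited values, ranged from 14.7 to 68.8 M per library, and a member peak held 3 to 5297 reads in a library. All 15 CD4 T cell marker genes had peaks. So did 8 of 11 marker genes of CD8, NK and innate-like T cells, with no peak nearest to Cd8a, Klrd1 or Ncr1. Cd8b1 had 1 peak, at -0.158 kb. Its log2 fold change was -1.91 ± 0.22 in anergic over Treg cells and 1.81 ± 0.22 in Treg over Teff cells. In Teff over naive cells it was -2.51 ± 0.25. Cd8b1 went against most of the 37 peaks of its list. Of these, 14 rose and 4 fell in anergic over Treg cells (37.8% and 10.8%, against 19.4% and 14.8% of all peaks). In Treg over Teff cells 2 rose and 25 fell (5.41% and 67.6%, against 14.4% and 18.2%). In Teff over naive cells 22 rose and 5 fell (59.5% and 13.5%, against 22.7% and 17.4%). The sort markers followed their gates in part. In anergic over Teff cells Nt5e, which encodes CD73, was higher at 4 of 5 peaks and lower at 1. Izumo1r, which encodes FR4, was higher at 4 of 7 there. Of 45 peaks at the 6 sort marker genes, 16 rose and 7 fell (35.6% and 15.6%, against 15.9% and 16.8% of all peaks). In anergic over Treg cells, where 19.4% of all peaks rose and 14.8% fell, Il2ra, which encodes CD25, fell at 10 of 13. Nrp1 passed at none of its 3 peaks there. Cd44 rose at 10 and fell at 1 of 16 peaks in Teff over naive cells (22.7% and 17.4% of all peaks). The single Foxp3 peak was lower in anergic over Treg cells (log2 fold change -3.37 ± 0.41) but higher in anergic over Teff cells (2.33 ± 0.41), although both were sorted as FOXP3 negative. Several of the 8 genes are also used by B cells, so B cell markers were measured. No peak lay nearest to 12 of 23 B cell marker genes, among them Cd79a, Ms4a1 and Pax5. The summed signal of the 11 others was 7151 to 7841 in anergic, 7989 to 8828 in Treg, 6219.8 to 6483 in Teff and 6146 to 6338 in naive libraries.

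Across the 41 peaks, anergic cells most often had the highest mean signal and naive cells the lowest. The anergic mean was the highest of the 4 groups at 22 peaks, the Treg mean at 10, the Teff mean at 2 and the naive mean at 7. The naive mean was the lowest at 23 peaks, the anergic mean at 9, the Treg mean at 5 and the Teff mean at 4. Angptl2 was highest in anergic cells at 7 of 7 peaks, whereas Bcl6 was highest in Treg cells at 7 of 9 and lowest in anergic cells at every peak but that at 18.7 kb. These are ranks of means and were not tested. They were not counted over all peaks, so they do not show an order particular to the 41.

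In anergic over Teff cells, 19 of 41 peaks rose and 4 fell (limma, Benjamini-Hochberg adjusted p under 0.05), where 15.9% of all 38493 peaks tested rose and 16.8% fell (32.8% in either direction). The median log2 fold change was 0.48 over the 41 peaks and -0.001 over all peaks. In anergic over naive cells, 23 rose and 5 fell, against 25.3% and 25.1% of all peaks (50.5% in either direction), with medians of 0.66 and -0.043. In anergic over Treg cells, 17 rose and 9 fell, against 19.4% and 14.8% of all peaks (34.1%), with medians of 0.39 and 0.043. Of the peaks that rose over Teff cells, 7 were at Angptl2 and 4 at Pou2af1. Over naive cells 7 were at Angptl2 and 8 at Cxcr5, and over Treg cells 6 were at Angptl2 and 5 at Pou2af1. Peaks of 1 gene are not independent. Of the 9 that fell in anergic over Treg cells, 8 were Bcl6 peaks and 1 was a Cxcr5 peak. Scaling by total reads in peaks left 15 higher and 9 lower in this comparison, while the share of higher calls among the calls over all peaks was 40.1%, against 56.8% as deposited.

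The comparisons that leave out anergic cells were made in the same fit. In Treg over Teff cells, 9 peaks rose and 5 fell, against 14.4% and 18.2% of all peaks (32.6% in either direction). Without Teff replicate 2, 5 rose and 5 fell. In Treg over naive cells, 18 rose and 4 fell, against 22.3% and 23.0% of all peaks (45.3%). In Teff over naive cells, 18 rose and 5 fell, against 22.7% and 17.4% (40.1%), and 12 rose and 4 fell without naive replicate 1. With scaling by total reads the share of higher calls over all peaks was 57.3% in Treg over Teff cells, against 44.2% as deposited, and 65.2% in Treg over naive cells, against 49.1%. That scaling moved the median of all peaks to 0.123 in Treg over naive cells, against -0.044 as deposited, and left 11 higher and 4 lower member peaks in Treg over Teff and 21 higher and 3 lower in Treg over naive cells. These comparisons share groups, so their counts are not independent.

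Overlap of single libraries was counted as well, against the same count over all peaks tested. In anergic against Teff cells, 22 of 41 peaks had every anergic library above every Teff library and 7 had it the other way (22.1% and 21.5% of all peaks, 43.5% in either direction). In anergic against Treg cells these counts were 18 and 9 (25.2% and 19.3%, 44.5%), and in anergic against naive cells 25 and 9 (31.6% and 35.1%, 66.7%). In Treg against Teff cells they were 11 and 5 (20.6% and 24.6%, 45.3%), in Treg against naive cells 22 and 7 (29.9% and 34.6%, 64.6%), and in Teff against naive cells 23 and 7 (30.8% and 32.8%, 63.7%).

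**Figure D1:**
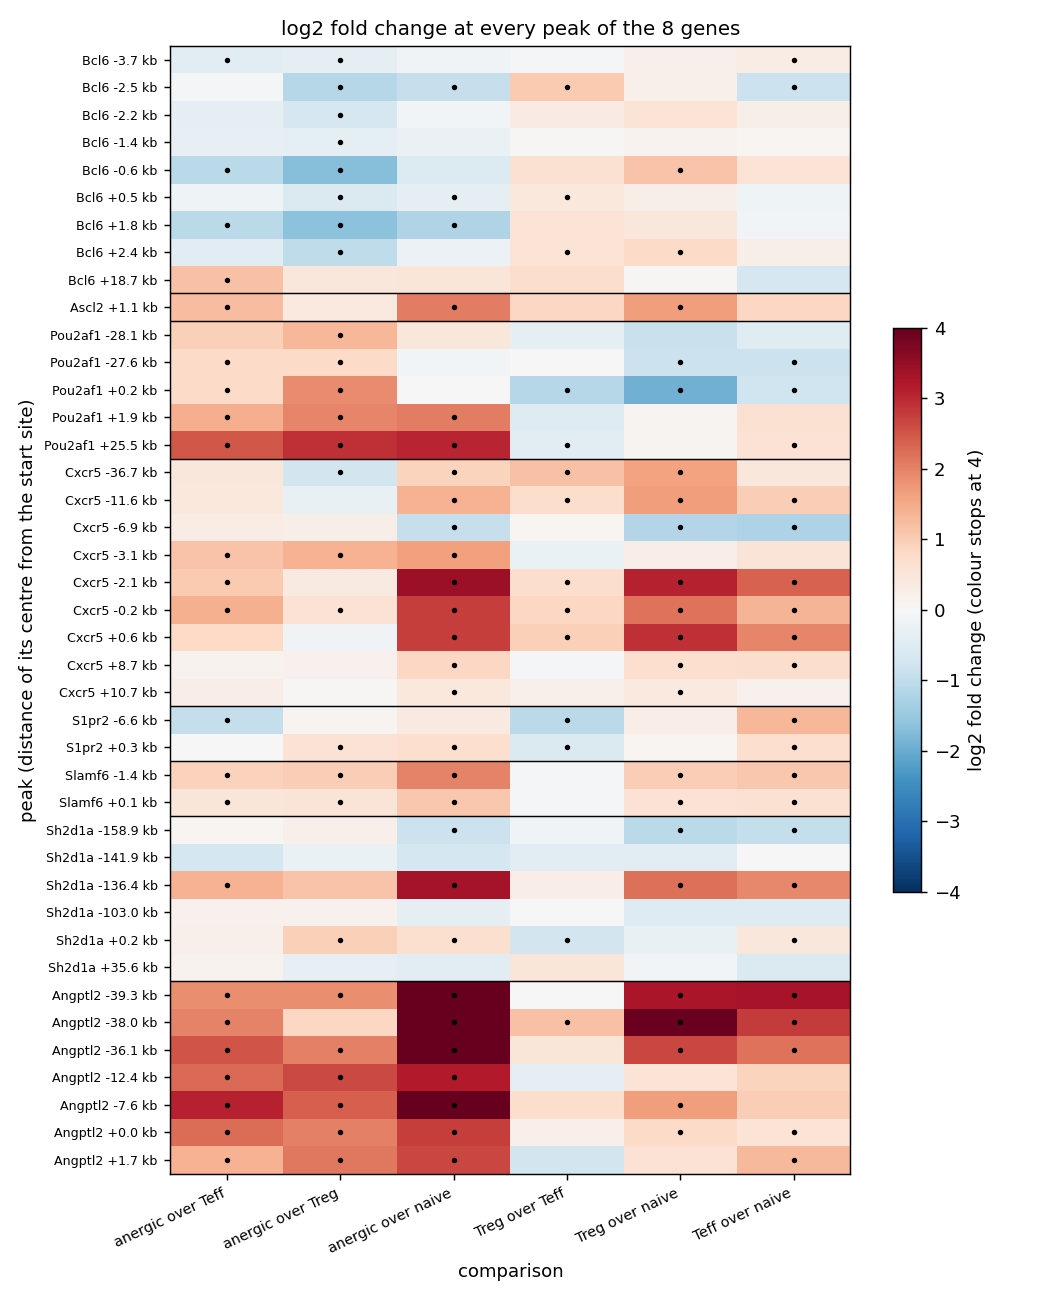
log2 fold change (colour, which stops at 4) of each of the 41 peaks (rows, labelled by gene and distance in kb from the nearest start site) in the 6 comparisons (columns), with a dot where limma's adjusted p was under 0.05. The Angptl2 rows are red in the 3 columns of anergic cells, and the Bcl6 rows are mostly blue in anergic over Treg cells, with 8 of 9 called lower.

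Bcl6, the repressor that directs the Tfh program, fell at all but 1 of its 9 peaks in anergic over Treg cells, where 14.8% of all peaks fell. In anergic over Teff cells 3 fell and 1 rose (16.8% and 15.9% of all peaks), and in anergic over naive cells 3 fell and none rose (25.1% and 25.3%), so the share that fell over naive cells was near that of all peaks. Its broad start-site peak, centred in an intron at 0.49 kb (chr16:23987483-23989240), had a signal of 2177, 1883 and 2534 in the anergic libraries, 3167, 3046 and 3689.6 in the Treg libraries, 2552, 2346 and 2540.2 in the Teff libraries and 2512 and 3144 in the naive libraries. The 3 Treg libraries overlapped with 1 naive library and stood above all anergic and Teff libraries, and the anergic and Teff libraries overlapped. This peak fell in anergic over Treg cells by 0.59 on the log2 scale (SE 0.12, adjusted p = 0.000508) and did not pass in anergic over Teff cells (-0.18 ± 0.12, adjusted p = 0.255). It rose in Treg over Teff cells (0.41 ± 0.12, adjusted p = 0.00995), a call lost without Teff replicate 2 or Treg replicate 3 (adjusted p up to 0.0623). In anergic over naive cells it was lower with overlapping libraries (-0.37 ± 0.13, adjusted p = 0.0236), a call lost without anergic replicate 2 or naive replicate 2 (adjusted p up to 0.339).

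Upstream of its outer start site Bcl6 had a pair of peaks. The intergenic peak at -0.62 kb (chr16:23989361-23989586), whose window with 1 E-box is printed above, had 56.4, 70.6 and 49 in the anergic libraries, 177, 196 and 198 in the Treg libraries, 132, 138 and 105 in the Teff libraries and 75.6 and 95.2 in the naive libraries. No 2 of these groups overlapped, in the order Treg, Teff, naive and anergic. It fell in anergic over Treg cells (-1.69 ± 0.24, adjusted p = 1.27e-05) and in anergic over Teff cells (-1.08 ± 0.24, adjusted p = 0.00106), and rose in Treg over naive cells (1.15 ± 0.27, adjusted p = 0.00123). The peak at -2.52 kb (chr16:23991224-23991521), whose window holds the STAT or BCL6 match, had 230.5, 175 and 177 in the anergic libraries, 385, 407 and 479 in the Treg libraries, 208, 178 and 228 in the Teff libraries and 351 and 386 in the naive libraries. Treg and naive libraries overlapped there and lay above the anergic and Teff libraries, which overlapped as well. It fell in anergic over Treg cells (-1.13 ± 0.17, adjusted p = 3.87e-05) and in anergic over naive cells (-0.93 ± 0.19, adjusted p = 0.000352). It rose in Treg over Teff cells (1.05 ± 0.17, adjusted p = 8.23e-05) and fell in Teff over naive cells (-0.85 ± 0.19, adjusted p = 0.00133).

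Peaks inside the gene mostly had the same direction. In anergic over Treg cells the peaks at 1.85 and 2.42 kb fell by 1.63 and 1.01, and 3 peaks around the inner start site, at -1.35, -2.17 and -3.75 kb, fell by 0.39, 0.67 and 0.35. The call at -1.35 kb was lost without anergic replicate 1 or 2 or any single Treg library (adjusted p up to 0.139). That at -2.17 kb was lost without anergic replicate 1 or 2 or Treg replicate 2 or 3 (up to 0.0947), and that at -3.75 kb without Treg replicate 1 (0.0533). The largest of these peaks, at -3.75 kb, had 1345 ± 47.2 in anergic, 1716 ± 67.1 in Treg, 1834 ± 175 in Teff and 1477 ± 114 in naive cells (SD), and it also fell in anergic over Teff cells (-0.44 ± 0.11, adjusted p = 0.0021). The peak at 1.85 kb fell in anergic over Teff (-1.08) and over naive cells (-1.19), with 1 anergic library at 82.9 and both others at 39. The single exception lay in intergenic DNA 18.7 kb beyond the inner start site (chr16:23962512-23962669). There the signal was 101, 88 and 93.4 in the anergic libraries, 38.3, 87.3 and 97.5 in the Treg libraries, 37.4, 41.3 and 46.7 in the Teff libraries and 67.4 and 66.6 in the naive libraries, higher in every anergic than in every Teff library (1.16 ± 0.33, adjusted p = 0.00854), and the Treg libraries ranged widely. Summed over its 9 peaks, Bcl6 stood at 4593 ± 403 in anergic, 6803 ± 427 in Treg, 5625 ± 288 in Teff and 5701 ± 327 in naive cells (SD). The Teff and naive libraries overlapped in this sum, while all anergic libraries lay below and all Treg libraries above them. B cells also express Bcl6, and the summed signal of the B cell markers given above was highest in Treg libraries as well. Its part in the Bcl6 differences was not tested.

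**Figure D2:**
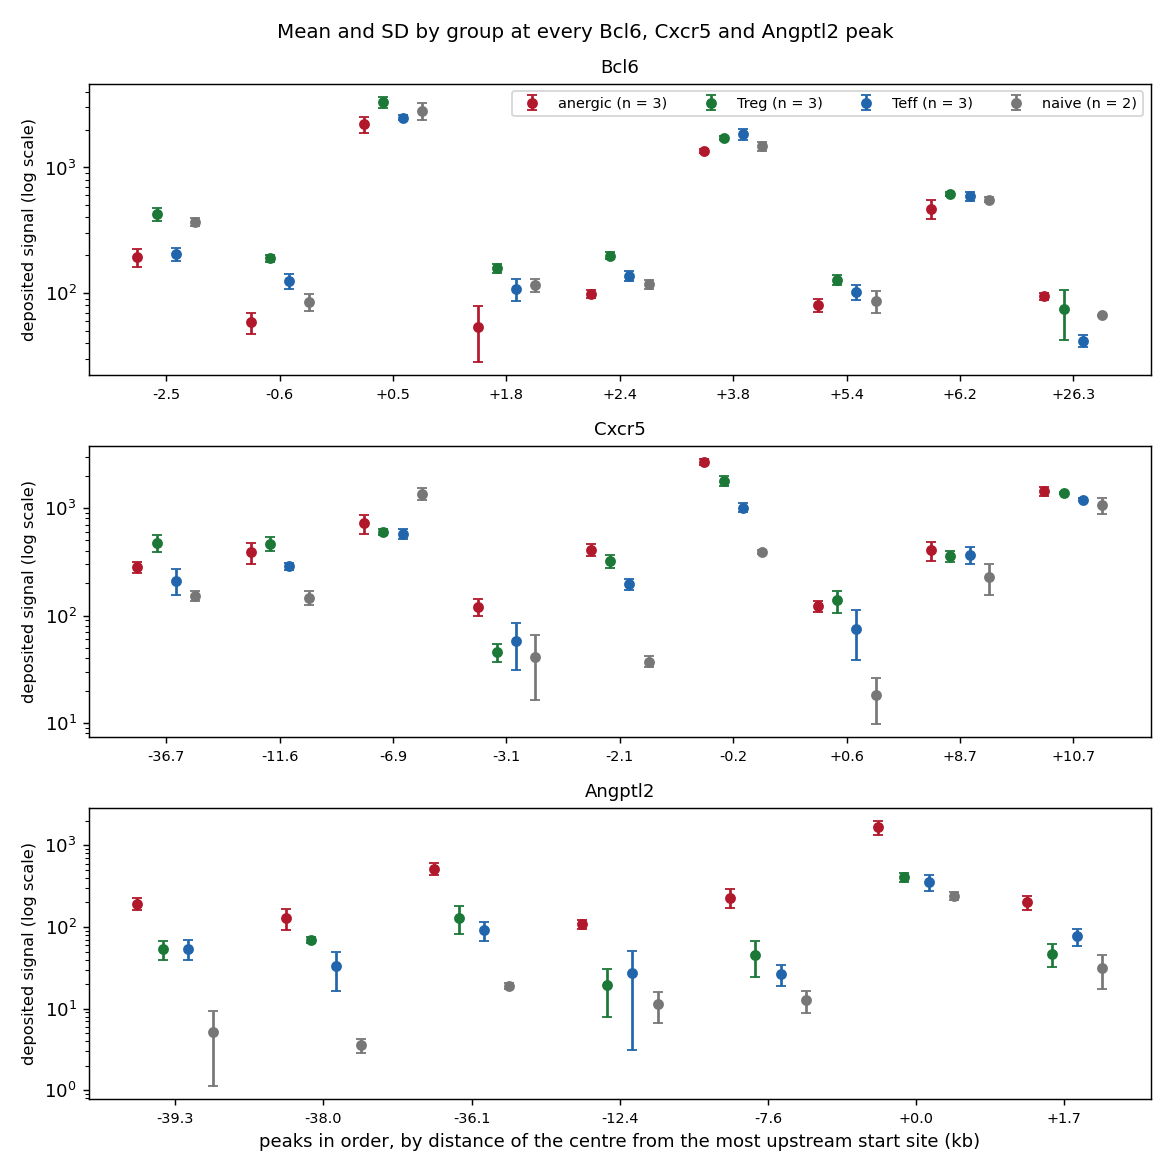
Deposited signal (log scale) at every Bcl6, Cxcr5 and Angptl2 peak, as the mean (point) and SD (bar) of the anergic, Treg, Teff and naive libraries, with peaks in order of distance from the most upstream start site of the gene (so that the Bcl6 peaks at -3.75, -2.17, -1.35 and 18.7 kb from its inner start site stand at 3.8, 5.4, 6.2 and 26.3 kb). Treg points lie highest at 7 of 9 Bcl6 peaks, and anergic points lie highest at 7 of 7 Angptl2 peaks.

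Ascl2, the E-box factor that induces Cxcr5 in Tfh cells, had a single weak peak in its coding exon at 1.08 kb (chr7:142968018-142968345). Its signal was 124, 134 and 149.8 in the anergic libraries, 113, 153 and 64.6 in the Treg libraries, 43.6, 46.2 and 95 in the Teff libraries and 25.2 and 41 in the naive libraries. Every anergic library lay above every Teff and naive library, and the Treg libraries spread across the range of the anergic and Teff libraries. The peak rose in anergic over Teff cells (1.22 ± 0.34, adjusted p = 0.0082), in anergic over naive cells (2.04 ± 0.39, adjusted p = 0.000117) and in Treg over naive cells (1.66 ± 0.39, adjusted p = 0.00133). The difference in anergic over Treg cells was 0.39 ± 0.34 (adjusted p = 0.412).

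Pou2af1, the octamer coactivator, rose at all 5 peaks in anergic over Treg cells, where 19.4% of all peaks rose. It rose at 4 of 5 in anergic over Teff cells (15.9% of all peaks) and at 2 of 5 in anergic over naive cells (25.3%). The largest difference was at a peak in its 3′ UTR, at 25.5 kb (chr9:51238750-51239566), with 1719, 1502 and 1340.0 in the anergic libraries, 179, 183 and 233 in the Treg libraries, 290.1, 231 and 300.0 in the Teff libraries and 173 and 189.7 in the naive libraries. The lowest anergic library stood at 1340.0, against 300.0 in the highest of the others. The peak rose in anergic over Teff cells (2.47 ± 0.16, adjusted p = 5.48e-10), over Treg cells (2.93 ± 0.16, adjusted p = 3.91e-10) and over naive cells (3.05 ± 0.18, adjusted p = 6.37e-12). The small intronic peak at 1.9 kb (chr9:51215479-51215692) had the same order, with 98.8 ± 6.96 in anergic, 27 ± 13.9 in Treg, 37.5 ± 15.2 in Teff and 23.3 ± 4.25 in naive cells (SD), and rose by 1.44, 1.94 and 2.05 in anergic over Teff, Treg and naive cells. Of the intergenic peaks, that at -28.1 kb rose in anergic over Treg cells (1.34), a call lost without Treg replicate 3 (adjusted p = 0.0592). That at -27.6 kb rose in anergic over Treg (0.77) and over Teff cells (0.77). Both of its calls were lost without anergic replicate 1 or 2 and with scaling by total reads, the first also without Treg replicate 3, with TMM or with edgeR, and the other also without Teff replicate 3 (adjusted p up to 0.171). The naive mean was the highest at this peak, with 173 ± 50.1 in anergic, 102 ± 31.9 in Treg, 98.2 ± 13.1 in Teff and 181 ± 34.2 in naive cells (SD).

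The start-site peak of Pou2af1, at 0.18 kb and centred in an intron (chr9:51213384-51214356), had another order. It had 1122, 1558 and 1250.0 in the anergic libraries, 383, 364 and 300.1 in the Treg libraries, 787, 761 and 730.0 in the Teff libraries and 1411 and 1226 in the naive libraries. The anergic and naive libraries overlapped at the top, the Teff libraries lay below both, and the Treg libraries lay lowest. This peak rose in anergic over Teff (0.77 ± 0.14, adjusted p = 0.000143) and over Treg cells (1.90 ± 0.14, adjusted p = 4.04e-09), while anergic over naive cells gave -0.02 ± 0.16 (adjusted p = 0.929). It fell in Treg over Teff (-1.13 ± 0.14, adjusted p = 2.16e-06), in Treg over naive (-1.92 ± 0.16, adjusted p = 1.75e-09) and in Teff over naive cells (-0.79 ± 0.16, adjusted p = 0.00029). The B cell marker peaks were called higher at 10 of 28 and lower at 3 in anergic over Teff cells (35.7% and 10.7%, against 15.9% and 16.8% of all peaks), higher at 4 and lower at 7 in anergic over Treg cells (14.3% and 25%, against 19.4% and 14.8%), and higher at 14 and lower at 2 in Treg over Teff cells (50% and 7.14%, against 14.4% and 18.2%). Their part in the Pou2af1 differences was not tested.

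Cxcr5, which encodes the receptor that guides cells to the follicle, rose in anergic cells at its start site over every other group. The start-site peak at -0.23 kb (chr9:44526072-44527276) had 2794, 2792 and 2485 in the anergic libraries, 1600.3, 1784 and 1985 in the Treg libraries, 899, 1076 and 1050.1 in the Teff libraries and 379 and 404 in the naive libraries. No 2 groups overlapped, in the order anergic, Treg, Teff and naive. It rose in anergic over Teff cells (1.42 ± 0.12, adjusted p = 8.38e-09), over Treg cells (0.59 ± 0.12, adjusted p = 0.000493) and over naive cells (2.78 ± 0.13, adjusted p = 1.32e-13). It also rose in Treg over Teff (0.83 ± 0.12, adjusted p = 1.13e-05), in Treg over naive (2.19 ± 0.13, adjusted p = 1.52e-11) and in Teff over naive cells (1.36 ± 0.13, adjusted p = 2.67e-08).

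Upstream of Cxcr5 the groups changed order from peak to peak. The peak at -2.09 kb (chr9:44528270-44528796), with 3 E-boxes in its window, had 413, 457 and 352 in the anergic libraries, 280.4, 311 and 367 in the Treg libraries, 171, 206 and 215 in the Teff libraries and 34.1 and 40.3 in the naive libraries. The naive libraries were lowest by far, and the anergic and Treg libraries overlapped. It rose in anergic over naive (3.41 ± 0.21, adjusted p = 1.13e-11), in Treg over naive (3.06 ± 0.21, adjusted p = 1.57e-10) and in Teff over naive cells (2.37 ± 0.21, adjusted p = 9.45e-09). It also rose in anergic over Teff (1.04 ± 0.19, adjusted p = 0.000165) and in Treg over Teff cells (0.69 ± 0.19, adjusted p = 0.00748), with 0.35 ± 0.19 in anergic over Treg cells (adjusted p = 0.16). The peak at -6.86 kb (chr9:44532984-44533617) was the only Cxcr5 peak that was highest in naive cells, with 756, 848 and 565 in the anergic libraries, 559, 615 and 632 in the Treg libraries, 640.4, 575 and 515 in the Teff libraries and 1482 and 1232 in the naive libraries. It fell in anergic over naive (-0.92 ± 0.17, adjusted p = 7.09e-05), in Treg over naive (-1.17 ± 0.17, adjusted p = 6.38e-06) and in Teff over naive cells (-1.23 ± 0.17, adjusted p = 3.46e-06), and it did not pass between anergic, Treg and Teff cells.

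The most distant Cxcr5 peak, at -36.7 kb (chr9:44562922-44563424) with the 2 STAT or BCL6 matches, was highest in Treg cells, with 318, 282 and 249 in the anergic libraries, 379.5, 500.2 and 542 in the Treg libraries, 161, 201 and 273 in the Teff libraries and 141 and 165 in the naive libraries. The Treg libraries lay above all others, and the anergic and Teff libraries overlapped. It fell in anergic over Treg cells (-0.73 ± 0.20, adjusted p = 0.00714) and rose in Treg over Teff cells (1.18 ± 0.20, adjusted p = 0.000103). The peak at -11.6 kb rose in Treg over Teff cells too (0.69 ± 0.18, adjusted p = 0.00496). The weak peak at -3.11 kb, in contrast, was highest in anergic cells, with 121 ± 21.8 in anergic, 45.7 ± 8.41 in Treg, 57.9 ± 26.9 in Teff and 41.2 ± 24.9 in naive cells (SD). It rose in anergic over Treg cells (1.39 ± 0.37, adjusted p = 0.00618) and in anergic over Teff cells (1.13 ± 0.37, adjusted p = 0.0215), of which the call over Teff cells was lost without anergic replicate 1, Teff replicate 1 or Teff replicate 2 (adjusted p up to 0.116). Of the 3 intronic peaks, that at 0.64 kb rose in anergic over naive cells by 2.76 and in Treg over naive cells by 2.91, and those at 8.74 and 10.7 kb reached at most 0.83 in any comparison. Over all 9 peaks the summed signal was 6569.8 ± 603 in anergic, 5581 ± 479 in Treg, 3977 ± 159.7 in Teff and 3445 ± 232 in naive cells (SD). The anergic and Treg libraries overlapped in this sum, and the other neighbours did not. B cells also express Cxcr5. The summed B cell marker signal was lower in every anergic than in every Treg library, and higher in every anergic than in every Teff and naive library. Its part in the Cxcr5 differences was not tested.

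S1pr2, which encodes the receptor that keeps cells in the follicle, gave no call between anergic and Teff cells at its start site and was higher in both than in Treg and naive cells. Its peak at 0.33 kb (chr9:20975720-20977208) had 1784, 1916 and 2063 in the anergic libraries, 1327, 1330.4 and 1193 in the Treg libraries, 1745, 2108 and 1898 in the Teff libraries and 1178 and 1247 in the naive libraries. The anergic and Teff libraries overlapped fully and both lay above the Treg and naive libraries, which overlapped with each other. Anergic over Teff cells gave 0.0048 (SE 0.11, adjusted p = 0.981). The peak rose in anergic over Treg cells (0.58 ± 0.11, adjusted p = 0.000283), in anergic over naive cells (0.66 ± 0.12, adjusted p = 8.13e-05) and in Teff over naive cells (0.66 ± 0.12, adjusted p = 0.000149), and fell in Treg over Teff cells (-0.58 ± 0.11, adjusted p = 0.000289). At -6.55 kb (chr9:20983201-20983490) Teff cells stood alone, with 81.2, 138 and 82.6 in the anergic libraries, 74.3, 93.7 and 105 in the Treg libraries, 189, 190.0 and 195 in the Teff libraries and 60.1 and 94.5 in the naive libraries. Every Teff library lay above every other library there, and the peak fell in anergic over Teff cells (-0.96 ± 0.26, adjusted p = 0.00593) and in Treg over Teff cells (-1.08 ± 0.26, adjusted p = 0.00291). The Teff group was also the one with the highest summed signal at CD8, NK and innate-like T markers, at 22209 to 27475 in anergic, 20843 to 26103 in Treg, 27662 to 32583 in Teff and 25032 to 25677 in naive libraries. Their part in the S1pr2 difference was not tested.

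Slamf6, the SLAM receptor, rose in anergic cells at both of its peaks in all 3 comparisons. Of all peaks, 15.9% rose in anergic over Teff, 19.4% in anergic over Treg and 25.3% in anergic over naive cells. The peak at -1.39 kb (chr1:171915618-171916534), which lies in an intron of the annotated transcript Gm37065, had 653, 762 and 737 in the anergic libraries, 357, 292 and 444 in the Treg libraries, 316, 393 and 445 in the Teff libraries and 163 and 202 in the naive libraries. The anergic libraries lay above all others, the Treg and Teff libraries overlapped, and the naive libraries lay lowest. Signal rose in anergic over Teff (0.91 ± 0.17, adjusted p = 0.000291), over Treg (0.99 ± 0.17, adjusted p = 0.000159) and over naive cells (1.97 ± 0.20, adjusted p = 1.99e-08). The 5′ UTR peak at 0.14 kb (chr1:171917171-171918031) had 436, 451 and 479 in the anergic libraries, 252, 415 and 308 in the Treg libraries, 288, 332 and 365 in the Teff libraries and 190.1 and 240.0 in the naive libraries. There too every anergic library lay above every other library. Its log2 fold changes were 0.48 ± 0.18 in anergic over Teff (adjusted p = 0.047), 0.51 ± 0.18 over Treg (adjusted p = 0.0317) and 1.09 ± 0.20 over naive cells (adjusted p = 9.86e-05). The call over Teff cells was lost without any single anergic library, Teff replicate 1 or 2, or Treg replicate 3, and with scaling by total reads (adjusted p up to 0.172). The call over Treg cells was lost without anergic replicate 2 or 3 or Treg replicate 1 or 3, and with edgeR or either other scaling (adjusted p up to 0.182).

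Sh2d1a, which encodes the adaptor SAP, changed at its start site against Treg and naive cells but did not pass against Teff cells. The peak centred over a coding exon, at 0.18 kb (chrX:42502279-42503202), had 1277, 912 and 1072 in the anergic libraries, 494, 677 and 524 in the Treg libraries, 949.8, 885 and 977 in the Teff libraries and 721 and 647 in the naive libraries. The anergic and Teff libraries overlapped and lay above the Treg and naive libraries. That peak rose in anergic over Treg (0.94 ± 0.14, adjusted p = 3.26e-05) and over naive cells (0.66 ± 0.16, adjusted p = 0.00157), with 0.20 ± 0.14 in anergic over Teff cells (adjusted p = 0.315), and fell in Treg over Teff cells (-0.74 ± 0.14, adjusted p = 0.000396). Its other peaks lie far away, at -159, -142, -136, -103 and 35.6 kb, the last in an intron of Tenm1, and the assignment by distance does not show that they act on it. The peak at -136 kb (chrX:42366029-42366327) had 87.9, 93.3 and 119.6 in the anergic libraries, 31.5, 38.3 and 74.7 in the Treg libraries, 40.8, 49.6 and 25 in the Teff libraries and 4.06 and 18.6 in the naive libraries. Every anergic library lay above and both naive libraries lay below all others, and the peak rose in anergic over naive cells (3.33 ± 0.53, adjusted p = 1.45e-05) and over Teff cells (1.40 ± 0.47, adjusted p = 0.0252). In anergic over Treg cells it gave 1.13 and did not pass. The call over Teff cells was lost without anergic replicate 2 or 3 or Teff replicate 3 (adjusted p up to 0.101). The peak at -159 kb (chrX:42343456-42343903) was highest in naive cells, with 375 ± 84.9 in anergic, 322 ± 68.3 in Treg, 351 ± 61.7 in Teff and 678 ± 102 in naive cells (SD), and fell in anergic over naive (-0.87, adjusted p = 0.00182), in Treg over naive (-1.09, adjusted p = 0.000304) and in Teff over naive cells (-0.95, adjusted p = 0.00119). The remaining 3 peaks passed in none of the 6 comparisons.

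Angptl2 encodes a secreted protein. All 7 of its peaks rose in anergic over Teff cells (15.9% of all peaks) and in anergic over naive cells (25.3%). In anergic over Treg cells 6 of 7 rose (19.4% of all peaks). The start-site peak at 0.034 kb, over the 5′ UTR (chr2:33215616-33216374), had 1469, 2046 and 1483 in the anergic libraries, 362, 462 and 404 in the Treg libraries, 349, 282 and 443 in the Teff libraries and 258 and 222 in the naive libraries. The anergic libraries stood apart from all others, and the Treg and Teff libraries overlapped. It rose in anergic over Teff (2.22 ± 0.17, adjusted p = 3.79e-09), over Treg (2.01 ± 0.17, adjusted p = 2.54e-08) and over naive cells (2.77 ± 0.19, adjusted p = 6.78e-11). In Treg over Teff cells it gave 0.21 ± 0.17 (adjusted p = 0.378), and in Treg over naive cells it rose by 0.76 (adjusted p = 0.00265).

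The whole Angptl2 locus lies inside Ralgps1, so each of these peaks can also be called intronic to that gene. The peak at -7.63 kb (chr2:33208160-33208494), whose window holds 2 NFAT matches, had 222, 293 and 175 in the anergic libraries, 41.7, 68.1 and 26.6 in the Treg libraries, 18, 28.1 and 33.3 in the Teff libraries and 15.4 and 10.1 in the naive libraries. Every anergic library lay above every other library, and the change in anergic over Teff cells (3.08 ± 0.39, adjusted p = 2.55e-06) was the largest of the 41 peaks in that comparison. It rose by 2.38 in anergic over Treg and by 4.07 in anergic over naive cells. Farther out, 3 peaks lie between -36.1 and -39.3 kb. That at -36.1 kb (chr2:33179327-33180297) had 599, 522 and 434 in the anergic libraries, 106, 187 and 98.8 in the Treg libraries, 92.1, 66.1 and 115 in the Teff libraries and 17.9 and 20.1 in the naive libraries. All 3 anergic libraries lay above all others and both naive libraries lay below all others, and it rose by 2.52, 2.03 and 4.69 in anergic over Teff, Treg and naive cells (adjusted p = 2.56e-07, 6.29e-06 and 1.86e-11). The peak at -39.3 kb (chr2:33176568-33176853), with the AP-1 match, had 230.5, 186 and 167 in the anergic libraries, 47.3, 70.2 and 43 in the Treg libraries, 64.4, 37.2 and 61.7 in the Teff libraries and 8.12 and 2.32 in the naive libraries. The Treg and Teff libraries overlapped between the anergic and naive ones. Its change in anergic over naive cells (5.13 ± 0.44, adjusted p = 1.85e-09) was the largest of all 41 peaks, and it ranged from 4.33 to 5.86 over the alternatives. There 1 naive library held 3 reads. Between them, the peak at -38.0 kb had 128 ± 36.8 in anergic, 70.2 ± 6.23 in Treg, 33.1 ± 16.6 in Teff and 3.58 ± 0.683 in naive cells (SD) and was the Angptl2 peak that did not pass in anergic over Treg cells (0.82 ± 0.40, adjusted p = 0.12). The 2 remaining peaks, at -12.4 and 1.65 kb, rose in anergic over Teff cells by 2.27 and 1.38 and in anergic over Treg cells by 2.65 and 2.11. The peak at -39.3 kb also rose in Treg over naive (3.28) and in Teff over naive cells (3.29), and Treg over Teff cells gave -0.015 ± 0.39 (adjusted p = 0.982).

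**Figure D3:**
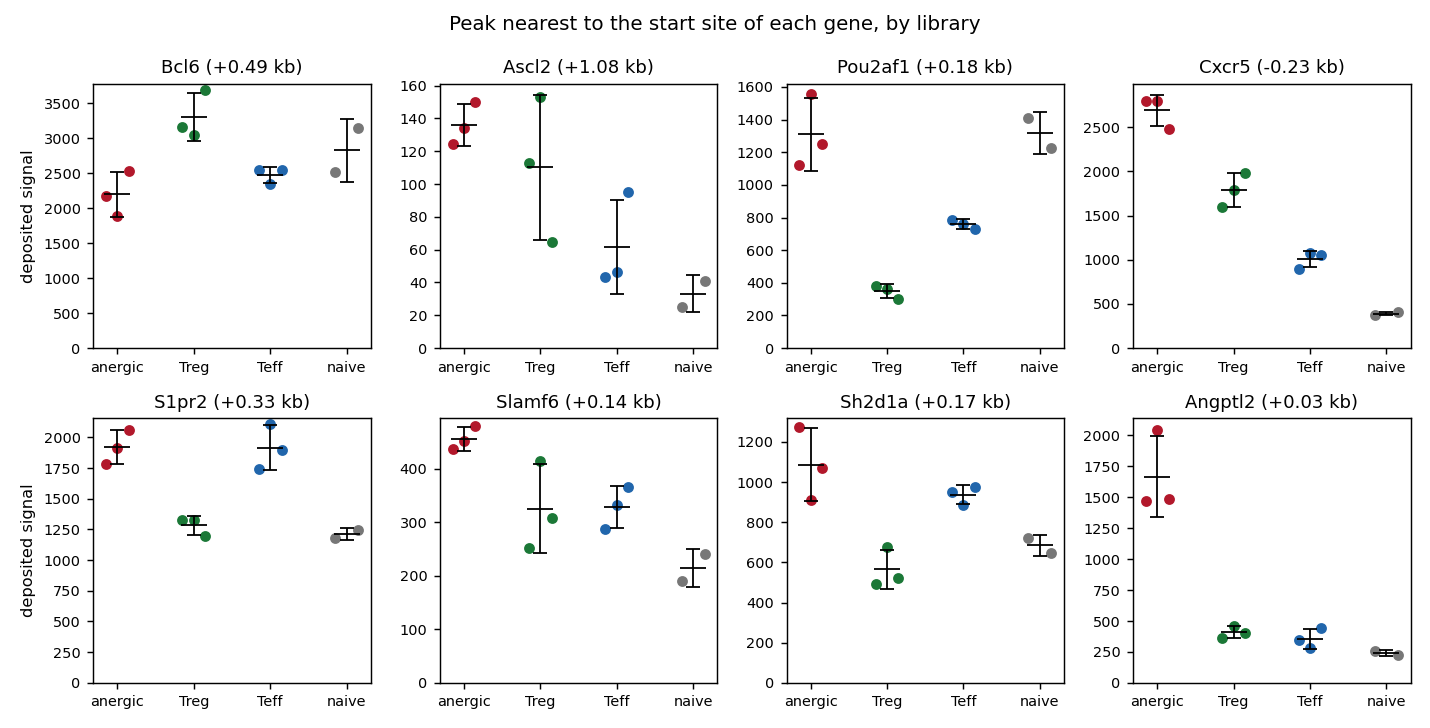
Deposited signal in every library at the peak nearest to the start site of each of the 8 genes, with the mean and SD of each group (bars) and the distance from the start site in the panel title. Anergic libraries lie above all others at Cxcr5, Slamf6 and Angptl2, and Treg libraries lie lowest at Pou2af1.

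Levels at different genes can be set beside each other only per length of the peak. Per kb of the start-site peak, the signal in anergic cells was highest at Cxcr5 (2232 ± 148) and Angptl2 (2195 ± 434), followed by Pou2af1 (1346 ± 230.0), S1pr2 (1290.2 ± 93.9), Bcl6 (1250.3 ± 186) and Sh2d1a (1176 ± 198). It was lower at Slamf6 (529 ± 25.3) and Ascl2 (415 ± 39.1). In naive cells the per-kb signal was highest at Bcl6 (1609 ± 254) and Pou2af1 (1355 ± 134) and stood at 325 ± 15 at Cxcr5 and 317 ± 33.7 at Angptl2. In Treg cells it was highest at Bcl6 (1878 ± 195) and Cxcr5 (1485 ± 159.8), and in Teff cells at Bcl6 (1410.5 ± 65.8) and S1pr2 (1288 ± 122).

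Summed over all peaks of a gene, the order of the groups differed between the genes. For Pou2af1 the sum was 3173 ± 265 in anergic, 705 ± 59.7 in Treg, 1207 ± 32.1 in Teff and 1757 ± 137 in naive cells (SD), and no neighbours in the order anergic, naive, Teff and Treg overlapped. For Angptl2 it was 3046 ± 436 in anergic, 775 ± 148 in Treg, 668 ± 171 in Teff and 324 ± 41.9 in naive cells, where the Treg and Teff libraries overlapped. For Slamf6 it was 1172 ± 72.1 in anergic, 689 ± 73 in Treg, 713 ± 104 in Teff and 398 ± 62.7 in naive cells, again with Treg and Teff libraries overlapping. For Sh2d1a it was 1781 ± 88.9 in anergic, 1170.3 ± 81.1 in Treg, 1555 ± 82.5 in Teff and 1674 ± 120.4 in naive cells, with the Treg libraries below all others. For S1pr2 the anergic libraries (2022 ± 143) overlapped with the Teff libraries (2108 ± 182), and the Treg (1374 ± 67.2) overlapped with the naive libraries (1289.6 ± 72.7). The only Ascl2 peak is described above.

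Genes were ranked for each member by Pearson's r between their summed signals over the 11 libraries. The pool was 1533 genes with at least 3 peaks and an SD of at least 0.3 on the log2 scale. Predicted genes in it (named Gm, LOC or Rik) were left out before ranking. The genes most like Bcl6 were Flicr (0.904), Il2ra (0.888) and Bhlhe41 (0.886), of which Il2ra encodes CD25, a marker of the Treg sort. For Cxcr5 they were Cd9 (0.98), Mir28a (0.975) and Cd83 (0.973), for Pou2af1 Tprg (0.983), Cep295nl (0.966) and Rfx4 (0.964), and for Angptl2 Phactr2 (0.991), Cacna1d (0.989) and Dusp14 (0.982). For S1pr2 they were Smpdl3b (0.969), Tbx21 (0.966), which encodes the Th1 factor T-bet, and Orai2 (0.963). For Slamf6 they were Reep3 (0.985), Cass4 (0.982) and Smim20 (0.98), for Sh2d1a Abhd2 (0.948), Gypc (0.921) and Galnt9 (0.919), and for Ascl2 Phactr4 (0.94), Tmbim1 (0.925) and Slc7a10 (0.924). Libraries of 1 group are alike, so these values describe a shared order of 4 groups more than 11 separate points. The share of genes with r over 0.9, with predicted genes left out, ranged from 0.0814% for Bcl6 to 9.44% for Slamf6.

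The other genes of the Tfh program, 27 genes with 349 peaks, had more peaks higher than lower in each comparison. In anergic over Teff cells 143 rose and 57 fell (41.0% and 16.3%, against 15.9% and 16.8% of all peaks, median 0.34). Those with at least 80% of peaks higher were Il21 (6 of 7 peaks), the cytokine of Tfh cells, Tox (21 of 22), a nuclear factor, Tnfsf8 (20 of 21), a TNF family ligand, Cd200 (7 of 8) and Tigit (9 of 11, with 1 lower), both surface proteins, and Pou2f2 (5 of 5), which encodes OCT2, a partner of POU2AF1. The peak of each with the smallest adjusted p rose by 2.06 ± 0.21 at Il21, 2.75 ± 0.23 at Tox, 2.81 ± 0.16 at Tnfsf8, 2.12 ± 0.24 at Cd200, 2.05 ± 0.22 at Tigit and 1.92 ± 0.25 at Pou2f2. In anergic over Treg cells 119 rose and 72 fell (34.1% and 20.6%, against 19.4% and 14.8% of all peaks, median 0.20), with Il21 (7 of 7, top peak 2.69 ± 0.21), Tox2 (7 of 7, 1.18 ± 0.10) and Il4 (4 of 4, 2.20 ± 0.30) higher. In anergic over naive cells 172 rose and 96 fell (49.3% and 27.5%, against 25.3% and 25.1% of all peaks, median 0.49), and Lef1, which encodes a factor of both naive and early Tfh cells, fell at 44 of 49 peaks (top peak -3.94 ± 0.19), whereas Icos, which encodes a costimulatory receptor of Tfh cells, rose at 17 of 21 (4.88 ± 0.40). In anergic over Treg and over naive cells the share that fell was thus also above that of all peaks. In Treg over Teff cells 107 rose and 49 fell (30.7% and 14%, against 14.4% and 18.2% of all peaks), in Treg over naive 153 rose and 77 fell (43.8% and 22.1%, against 22.3% and 23.0%), and in Teff over naive 121 rose and 79 fell (34.7% and 22.6%, against 22.7% and 17.4%). Peaks of 1 gene are not independent, and no test of the list was made.

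Genes known to oppose the Tfh program had more peaks lower than higher in anergic cells. Of 334 peaks at 19 genes, 45 rose and 106 fell in anergic over Teff cells (13.5% and 31.7%, against 15.9% and 16.8% of all peaks, median -0.30). In anergic over Treg cells 28 rose and 173 fell (8.38% and 51.8%, against 19.4% and 14.8%, median -0.60), and in anergic over naive cells 65 rose and 178 fell (19.5% and 53.3%, against 25.3% and 25.1%, median -0.70). A pair of genes with many peaks carried much of this, with Foxp1 at 40 and Bach2 at 37 of the 173 lower peaks over Treg cells. Selplg, the P-selectin ligand gene, was lower at 10 of its 12 peaks in anergic over Teff cells (top peak -2.11 ± 0.16). Il7r, which encodes a chain of the IL-7 receptor, fell at 11 of 12 peaks in anergic over naive cells (-1.95 ± 0.21). Il2rb, a chain of the IL-2 receptor, went the other way, with 5 of 5 peaks higher in anergic over naive cells (2.15 ± 0.11). In Treg over Teff cells 142 of these peaks rose and 58 fell (42.5% and 17.4%, against 14.4% and 18.2% of all peaks), among them Bach2 (43 of 51 higher, top peak 2.07 ± 0.24) and Tbx21 (10 of 11 lower, -3.00 ± 0.21). In Treg over naive cells 74 rose and 73 fell (22.2% and 21.9%, against 22.3% and 23.0%), and in Teff over naive cells 64 rose and 138 fell (19.2% and 41.3%, against 22.7% and 17.4%).

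Among SAP and SLAM partners (94 peaks of 12 genes) 29 rose and 23 fell in anergic over Teff cells (30.9% and 24.5%, against 15.9% and 16.8% of all peaks). Over Treg cells 42 rose in anergic cells and 10 fell (44.7% and 10.6%, against 19.4% and 14.8%), and in anergic over naive cells 41 rose and 22 fell (43.6% and 23.4%, against 25.3% and 25.1%). Fyn, the kinase that SAP recruits, was higher at 22 of 24 sites (top peak 2.22 ± 0.18) and the phosphatase gene Ptpn11 at 8 of 9 sites (3.49 ± 0.27) when anergic were set over Treg cells. Among genes of S1P signalling and follicle homing (121 peaks of 12 genes) 24 rose and 23 fell in anergic over Teff cells (19.8% and 19.0%), which is close to the shares of all peaks. Over Treg cells 20 rose and 28 fell in anergic cells (16.5% and 23.1%, against 19.4% and 14.8%), and in anergic over naive cells 28 rose and 48 fell (23.1% and 39.7%, against 25.3% and 25.1%). Cxcr3, a chemokine receptor of Th1 cells, was higher at 3 of 3 sites in anergic over Treg and in anergic over naive cells and fell at 3 of 3 in Treg over Teff cells. Of 37 peaks at genes of CD8, NK and innate-like cells, 25 fell and 1 rose in anergic over Teff cells (67.6% and 2.70%, against 16.8% and 15.9% of all peaks), with Zbtb16 lower at 13 of 13. In the same comparison CD4 T cell markers rose at 21 and fell at 29 of 151 peaks (13.9% and 19.2%), and myeloid and dendritic markers rose at 1 and fell at 2 of 13 (7.69% and 15.4%). Some lists share genes, such as Slamf1 and Cd84, or S1pr1, Ccr7 and Gpr183.

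**Figure D4:**
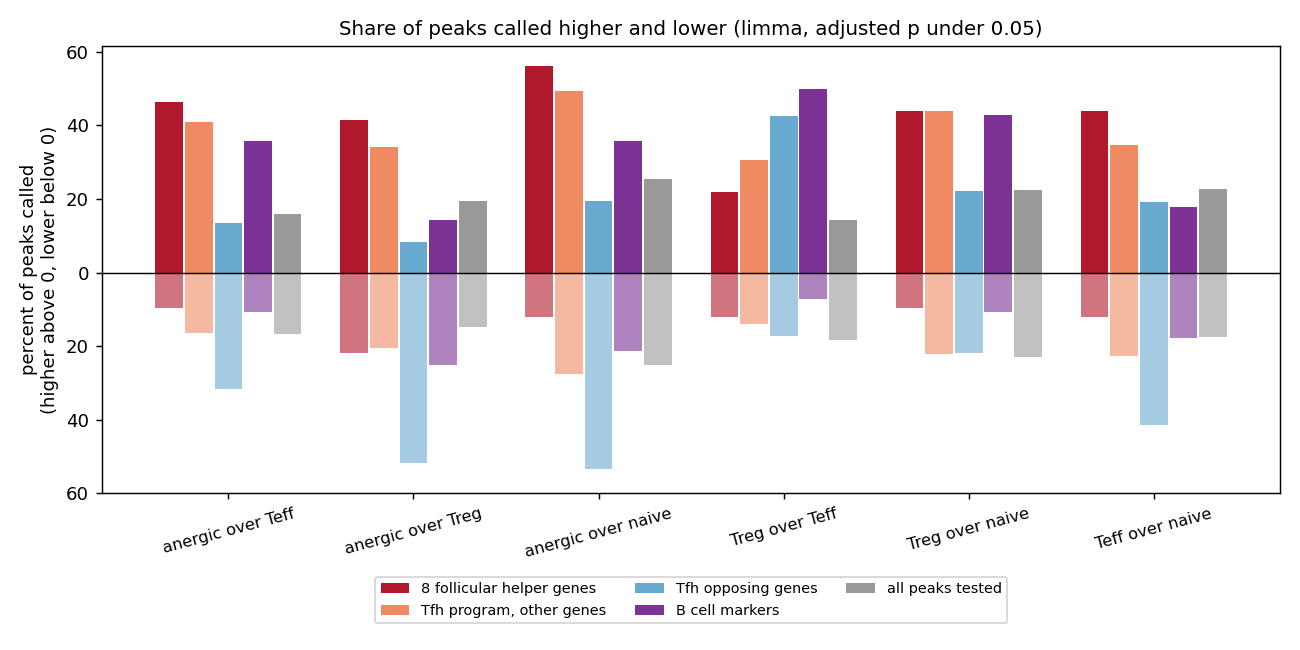
Percent of peaks called higher (above 0) and lower (below 0, paler) by limma at an adjusted p under 0.05 in the 6 comparisons, for the 8 follicular helper genes, the other Tfh program genes, the genes that oppose the program, B cell markers and all peaks tested. In anergic over Teff cells the bars above 0 reach 46.3% for the 8 genes and 15.9% for all peaks.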

How the data were processed

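ATAC-seq was measured in 11 libraries of 50000 cells from 3 anergic, 3 Treg, 3 Teff and 2 naive samples. Per the series' design text, the authors trimmed reads with Trimmomatic 0.38.1, aligned them to mm10 with Bowtie2 2.3.3.1, sorted with SAMtools 1.13, called peaks in each sample with Genrich 0.5 (duplicates, mitochondrial reads and blacklisted regions removed, ends moved for the transposase), merged them with DiffBind 2.10.0 into 38509 consensus peaks and annotated these with HOMER 4.11.1. Scaling of libraries before deposit can hide a global change in accessibility.

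The deposited signal per peak is a read count multiplied by a factor of the library, which the authors' files do not name. Its smallest value in a library was taken as 1 read (worth 0.527 to 2.13), and 100% of values were then whole within 0.01 of a read. Replicates differed by more than counting error (chi-square of 7.16 to 22.0 per degree of freedom), and each was counted as a separate library. This check compares them with counting error alone, so it cannot show whether they came from separate animals. The replicate numbers were not taken to pair the samples, though 2 or 3 libraries a group are too few to exclude pairing. Depth is 14.7 to 68.8 M reads in peaks per library, and few reads in weak peaks limit the precision there.

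Each peak was assigned by its centre to the closest NM or NR start site in RefSeq (GRCm38.p6, 45756 starts), with deposited starts raised by 1. A nearest gene need not be the gene a site acts on. limma 3.58.1 (R 4.3.3) was run with a mean-variance trend on log2(signal + 1) over all 11 libraries, with group alone in the model and Benjamini-Hochberg adjustment over the 38493 peaks that passed edgeR's filter for low counts, at a threshold of 0.05. Errors of fold changes are standard errors. On the log2(signal + 1) scale the change of weak peaks is understated. edgeR 4.0.16 on the recovered reads called 12830 peaks in anergic over Teff, 12820 in anergic over Treg, 19546 in anergic over naive, 12227 in Treg over Teff, 16779 in Treg over naive and 15735 in Teff over naive cells. The script was tested on simulated data. Motifs were searched by their letters on both strands of the central 200 bases, and tables and figures were made with Python 3.11.15, pandas 2.3.3, numpy 2.4.6 and matplotlib 3.10.9.

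Full values were given for the peak nearest to each start site, for the peak with the smallest adjusted p in each comparison and for peaks that go against their gene. Other genes were named where at least 80% of 3 or more peaks passed in 1 direction. Izumo1r, Nt5e, Foxp3, Il2ra, Nrp1 and Cd44 were named for their gates and Cd8b1 as a CD8 marker, outside that rule. The 8 genes, the lists and the tests were chosen with earlier results of these data known. RNA-seq of the series was not analysed here.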

Additional observations from a re-analysis of the deposited data

How the results depend on the processing

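All 13 planned kinds of alternative were run. For the counts of the 41 peaks, 2 settings mattered. Asking also for a 2-fold change left 2 lower in anergic over Teff, 11 higher and 4 lower in anergic over Treg, 1 lower in anergic over naive, 3 higher and 2 lower in Treg over Teff, and 10 higher and 1 lower in Teff over naive cells. Leaving out each library in turn gave 16 to 20 higher and 4 to 5 lower in anergic over Teff, 15 to 18 and 7 to 9 in anergic over Treg, 21 to 23 and 4 to 5 in anergic over naive, 5 to 10 and 4 to 5 in Treg over Teff, 14 to 18 and 3 to 5 in Treg over naive, and 12 to 18 and 4 to 5 in Teff over naive cells. Every other setting kept each count within 1.5 times the main one.

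With the replicate number as a block, 20 peaks rose in anergic over Teff cells, against 19 without it, and no other count changed. Same-numbered libraries correlated between -0.114 and 0.155 in their deviations from the group means, so the numbers were not taken to pair the samples. Of 149 fold changes of single peaks, 147 kept their direction and side of the threshold under the block, 138 under scaling by total reads, 145 under TMM, 143 with edgeR and 146 with DESeq2.

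Direction turned at 3 peaks that passed in neither case, all near 0. For S1pr2 at 0.33 kb in anergic over Teff cells (0.0048), the value was -0.0229 with scaling by total reads, -0.002 with DESeq2, and -0.0479, -0.0608 and -1e-04 without anergic replicate 3, Teff replicate 1 or Teff replicate 3 (up to 0.0753 without any other library). For Pou2af1 at 0.18 kb in anergic over naive cells (-0.02), it was 0.0172 with scaling by total reads, 0.0117 with edgeR, 0.021 with DESeq2, 0.0336 with the block, and 0.0849, 0.0073 and 0.0815 without anergic replicate 1, anergic replicate 3 or naive replicate 1 (down to -0.1513 without any other library). For Slamf6 at 0.14 kb in Treg over Teff cells (-0.038), it was 0.0653 with scaling by total reads, 0.0236 with TMM, 0.0419 with edgeR, and 0.0413 and 0.1286 without Teff replicate 3 or Treg replicate 1 (down to -0.2295 without any other library). The cause was not tested. Having 2 naive libraries, and reads at weak peaks down to 3, limits the comparisons with naive cells.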
